A study of Mus musculus with 6 samples.

Results

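The 33 genes described here carry pyruvate into the mitochondrion and turn it over in the tricarboxylic acid (TCA) cycle, and they were taken by symbol from the 53465 genes of a whole-transcriptome count table. RNA was measured in 6 pools of metaphase II (MII) oocytes from naturally aged Kun Ming (KM) female mice, 9 to 10 months old. Oocytes freed of cumulus cells were matured in vitro for 16 h in M16 medium, in 3 pools without quercetin (control) and in 3 pools with 10 μM quercetin, a plant flavonoid dissolved in DMSO. Each pool held 15 MII oocytes from 3 mice, so a value is a mean over mice, and young oocytes and other doses were not analysed here. Whether the control medium held DMSO is not given in the sources used here. All 33 symbols matched a single gene identifier, and 29 of them passed the filter on low counts and were tested. *Pdk2*, *Pdk4*, *Idh3b* and *Idh2* did not pass.

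Oocytes take up little glucose and depend on pyruvate from their surroundings, much of it made by cumulus cells. Pyruvate enters the mitochondrion through the *Mpc1* and *Mpc2* carrier and is made into acetyl-CoA by the pyruvate dehydrogenase (PDH) complex, which kinases switch off and phosphatases switch on. The cycle then oxidises the acetyl group and hands its electrons to the respiratory chain, while malate dehydrogenases and aspartate aminotransferases on both sides of the inner membrane shuttle electrons from the cytosol. MII oocytes make almost no new RNA, so the counts describe stored messages as far as the libraries captured them after maturation.

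Total counts ran from 7880467 to 9938743 per pool, and log2 values correlated between pools of a group (r = 0.954 to 0.970) as they did between groups (r = 0.953 to 0.971). All 10 oocyte marker genes passed the filter, with summed levels of 16317 to 20216 CPM (counts scaled to a common library size) in control and 17938 to 19536 CPM in quercetin pools. Of 18 cumulus and granulosa markers, 5 passed and 5 (*Amh*, *Amhr2*, *Foxl2*, *Ptx3* and *Vcan*) were at 0 in every pool. Their summed level was 77.7 to 93.0 CPM in control and 95.7 to 105.4 CPM in quercetin pools, so the groups did not overlap, and *Cyp19a1* (aromatase) and *Kitl* (Kit ligand) made up most of it. Of the 5 that passed, 2 (*Ptgs2* and *Col4a1*) had a fitted change below 0. In pooled RNA, more cells of a type and more RNA per cell cannot be told apart. Of 6 blood cell markers, the 4 globin genes were at 0, and the list summed to 2.68 to 3.59 CPM in control and 3.00 to 3.52 CPM in quercetin pools.

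Levels were compared between genes as CPM per kilobase (kb) of merged exons, with CPM scaled by the trimmed mean of M values (TMM). On this scale the median tested member, at 7.67 CPM per kb, lay above the median of all 11842 tested genes, at 3.29 CPM per kb. Of the 33 members, 16 were above that median and 17 were not. The tested members spanned a 567-fold range, from *Mdh1* at 148.5 to *Pcx* at 0.262 CPM per kb. The members took 0.173% ± 0.00583 (SD, n = 3) of all counts in control and 0.182% ± 0.00310 (SD, n = 3) in quercetin pools, and the groups overlapped.

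**Figure D1:**
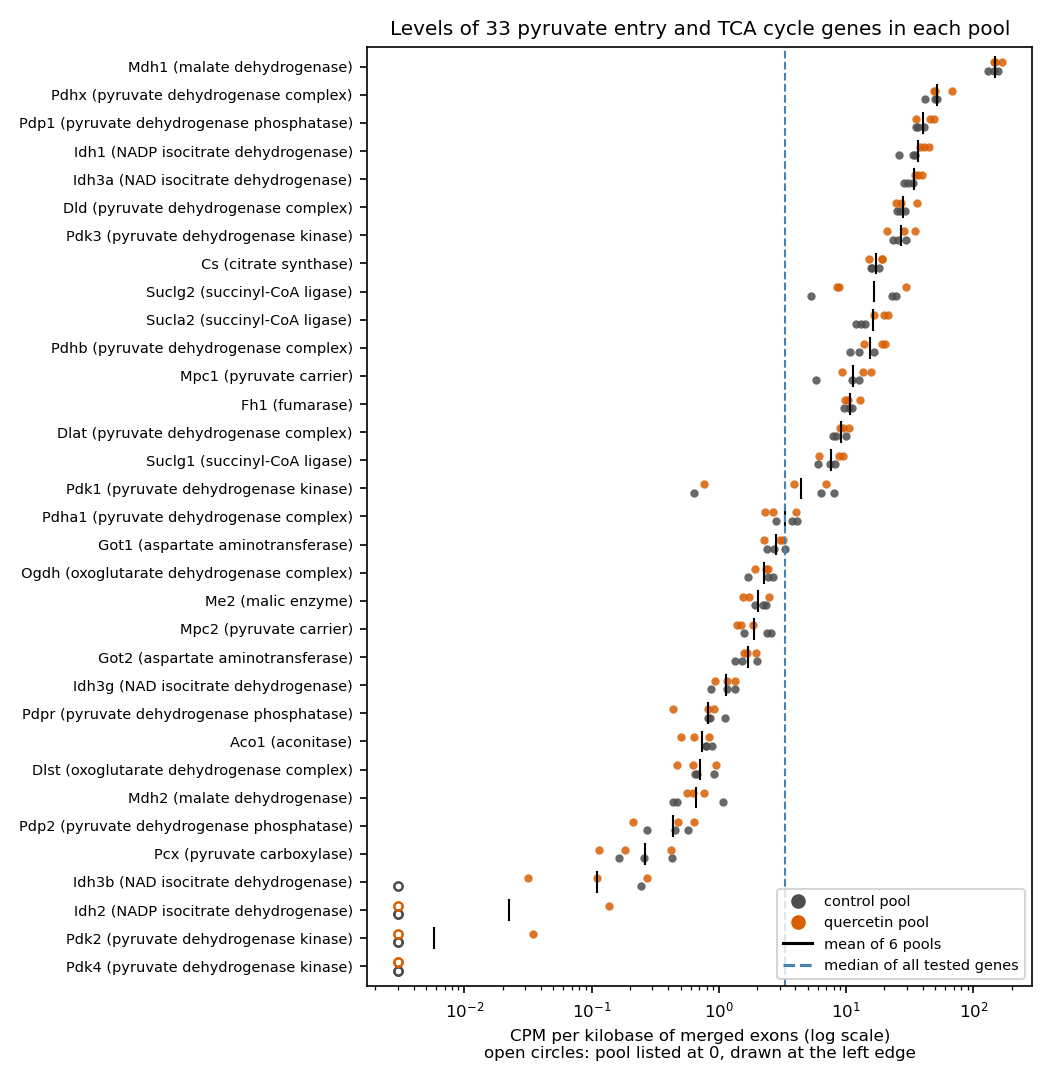
Level of each of the 33 genes in CPM per kb of merged exons (log scale), with a point for each control or quercetin pool, a black line at the mean of 6 pools and a dashed line at the median of all tested genes (3.29 CPM per kb). *Mdh1* stands highest at 148.5, *Pdk4* has no count in any pool, and most steps hold genes far apart in level.

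The carrier subunits were unequal. *Mpc1* had 11.3 CPM per kb and *Mpc2* had 1.88 CPM per kb (mean of 6 pools), and *Mpc1* was above *Mpc2* in 6 of 6 pools. The geometric mean ratio was 5.90, or 6.99 when the longest annotated transcript was used as the length. Part of the *Mpc1* signal is uncertain, because 30.8% of its 31-base words also occur in other genes and 23.1% of its exon length lies opposite *4930506C21Rik*. The related *Mpc1-ps* had 308 to 550 counts in a pool, against 100 to 260 for *Mpc1*.

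All 5 PDH complex genes passed the filter, and they fell in 1 order in 6 of 6 pools on both length scales. *Pdhx*, which anchors the E3 enzyme to the core, led with 51.6 CPM per kb. *Dld*, the E3 enzyme itself, had 28.1, *Pdhb*, the E1 beta subunit, 15.5, *Dlat*, the E2 core enzyme, 9.18, and *Pdha1*, the E1 alpha subunit, 3.28 CPM per kb. The message of the E1 alpha subunit was thus the lowest of the complex, although alpha and beta pair in equal numbers in the enzyme. The *Pdha1* to *Pdhb* ratio was 0.377, 0.302 and 0.172 in the control pools and 0.194, 0.121 and 0.199 in the quercetin pools (geometric mean 0.212). *Pdha2*, an autosomal copy of *Pdha1* known from the male germ line, had 5.36 CPM per kb and was above *Pdha1* in 5 of 6 pools. *Pdha2* was singled out after its values were seen. Of *Pdha1*, 16.1% of the exon length lies opposite *Map3k15*. Of the 31-base words of *Pdhb*, 17.9% occur elsewhere, and *Gm6123* shares the most of them, so these ratios carry that uncertainty.

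The regulators of the complex were each dominated by 1 family member. Among the kinases, *Pdk3* (ENSMUSG00000035232, chromosome X, 93764607 to 93832201) had 27.1 CPM per kb, *Pdk1* had 4.44, *Pdk2* had 1 count over all pools and *Pdk4* had 0. *Pdk3* counts were 681, 496 and 580 in control and 711, 672 and 455 in quercetin pools. A count of 0 allows up to 3 counts, or 0.328 to 0.375 CPM depending on the pool, so *Pdk2* and *Pdk4* were not detectable above that limit. Among the phosphatases, the catalytic subunit *Pdp1* had 40.5 CPM per kb, the regulatory subunit *Pdpr* 0.827 and the other catalytic subunit *Pdp2* 0.436. *Pdp1* counts ran from 1340 to 2005 and *Pdp2* counts from 11 to 29, a geometric mean ratio of 98.8 per kb. *Pcx*, which makes oxaloacetate from pyruvate, had 7, 17 and 11 counts in control and 7, 5 and 17 in quercetin pools. It was the lowest member to pass the filter, and *Idh3b* was the highest that did not.

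At the first steps of the cycle, message levels differed widely from step to step. Citrate synthase, *Cs*, had 17.2 CPM per kb. The cytosolic aconitase *Aco1*, which doubles as an iron regulatory protein, had 0.740, with 32, 33 and 32 counts in control and 18, 26 and 32 in quercetin pools.

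The catalytic alpha subunit of the NAD-linked isocitrate dehydrogenase, *Idh3a*, had 33.9 CPM per kb. Its partner subunits were far lower, with *Idh3g* at 1.13 and *Idh3b* at 0.110. *Idh3g* had 28, 30 and 21 counts in control and 25, 23 and 31 in quercetin pools. *Idh3b* (ENSMUSG00000027406, chromosome 2, 130279309 to 130284547) had 0, 7 and 0 counts in control and 3, 1 and 8 in quercetin pools. The *Idh3a* to *Idh3g* ratio ran from 24.5 to 42.1 over the 6 pools. Of the NADP-linked enzymes, the cytosolic *Idh1* had 36.4 CPM per kb, whereas the mitochondrial *Idh2* (ENSMUSG00000030541, chromosome 7, 80094846 to 80115392) had 0 counts in 5 pools and 3 counts in quercetin pool 3. No fold is given for *Idh2*, which was at or under the floor of 3 counts in 6 of 6 pools.

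The E1 and E2 messages of the oxoglutarate dehydrogenase complex were low. The E1 enzyme *Ogdh* had 2.26 and the E2 enzyme *Dlst* 0.715 CPM per kb, and *Ogdh* was above *Dlst* in 6 of 6 pools. By the longest transcript, they had 2.98 and 2.12 CPM per kb. *Dld*, the E3 enzyme this complex shares with PDH, stood well above both. The succinyl-CoA ligase subunits were closer to each other. *Sucla2*, the ADP-forming beta subunit, had 16.2, *Suclg2*, the GDP-forming beta subunit, 16.7, and *Suclg1*, the alpha subunit of both forms, 7.67 CPM per kb. *Sucla2* was above *Suclg2* in 3 of 6 pools, so these do not differ beyond their spread. Fumarase, *Fh1*, had 10.7 CPM per kb.

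At the malate dehydrogenase step, the cytosolic *Mdh1* (ENSMUSG00000020321, chromosome 11, 21556787 to 21572367) had 2990, 3107 and 3537 counts in control and 3005, 3918 and 3238 in quercetin pools. The mitochondrial *Mdh2* (ENSMUSG00000019179, chromosome 5, 135778480 to 135790398) had 14, 32 and 15 in control and 18, 25 and 17 in quercetin pools. *Mdh1* alone sat at the 96.6th percentile of tested genes per kb and *Mdh2* at the 16.4th. Their geometric mean ratio per kb was 236, or 129 by the longest transcript. The aminotransferases of the same shuttle were low and near each other, with the cytosolic *Got1* at 2.81 and the mitochondrial *Got2* at 1.68 CPM per kb. *Got1* was above *Got2* in 6 of 6 pools by merged exons and in 4 of 6 by the longest transcript, and 30.9% of the 31-base words of *Got2* occur in other genes. The mitochondrial malic enzyme *Me2*, which makes pyruvate from malate, had 2.04 CPM per kb.

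Summed over steps, malate dehydrogenase held 30.3% of the members' level per kb, the PDH complex 21.8%, the PDH phosphatases 8.44% and succinyl-CoA ligase 8.11%. The oxoglutarate dehydrogenase complex (*Ogdh* and *Dlst*, with *Dld* counted under PDH) held 0.609%, aconitase 0.153% and pyruvate carboxylase 0.0548%. In the order of all members, *Mdh1* was above *Pdhx* and *Pdhx* above *Pdp1* in 6 of 6 pools. Of 32 neighbouring pairs in that order, 7 were ordered alike in every pool. *Dld* and *Pdk3*, *Cs* and *Suclg2*, *Suclg2* and *Sucla2*, *Mpc2* and *Got2*, *Aco1* and *Dlst*, and *Dlst* and *Mdh2* exchanged places in 3 of 6 pools, so these neighbours did not differ beyond their spread.

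The members' levels per kb were lower where the GC content of the transcript was higher (Spearman's rho = -0.56 over 33 genes, given as a description). Over the 11814 tested genes with a GC value, rho was -0.15. The 33 include the 4 members that failed the filter, so the sets are not alike and the values are not compared. The 10 highest members had 39.2 to 48.2% GC (median 45.1%) and the 10 lowest 44.9 to 57.7% (median 49.7%). The part of GC content in the differences between genes was not tested. Length showed little of this, with a rho of -0.090 over the same 33 genes, which all share the same 6 libraries.

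Most members were steady between pools of a group, and *Pdk1* and *Suclg2* were not. The SD of log2(CPM + 1) within groups had a median of 0.25 over the 29 tested members and 0.28 over all tested genes. *Pdk1* (ENSMUSG00000006494, chromosome 2, 71873224 to 71903858) had 554, 415 and 44 counts in control and 242, 496 and 51 in quercetin pools. Its pools numbered 3 were the lowest of each group, its highest pool was 12.6-fold above its lowest, and its SD of 1.72 was at the 99.7th percentile. The *Pdk1* to *Pdk3* ratio accordingly ran from 0.0250 to 0.275, and *Pdk1* was below *Pdk3* in 6 of 6 pools.

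*Suclg2* (ENSMUSG00000061838, chromosome 6, 95473009 to 95718800) had 954, 206 and 1017 counts in control and 328, 1252 and 332 in quercetin pools. Here control pool 2 and quercetin pools 1 and 3 were low, a different set from *Pdk1*. Its SD of 1.12 was at the 99.0th percentile. Of its 31-base words, 20.7% also occur elsewhere, and the gene that shares the most of them is *Gm15163*. That gene had 142, 122 and 147 counts in control and 186, 250 and 183 in quercetin pools, with its lowest control pool and highest quercetin pool the same as those of *Suclg2* but over a narrower range. The part of this shared sequence in the spread was not tested.

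**Figure D2:**
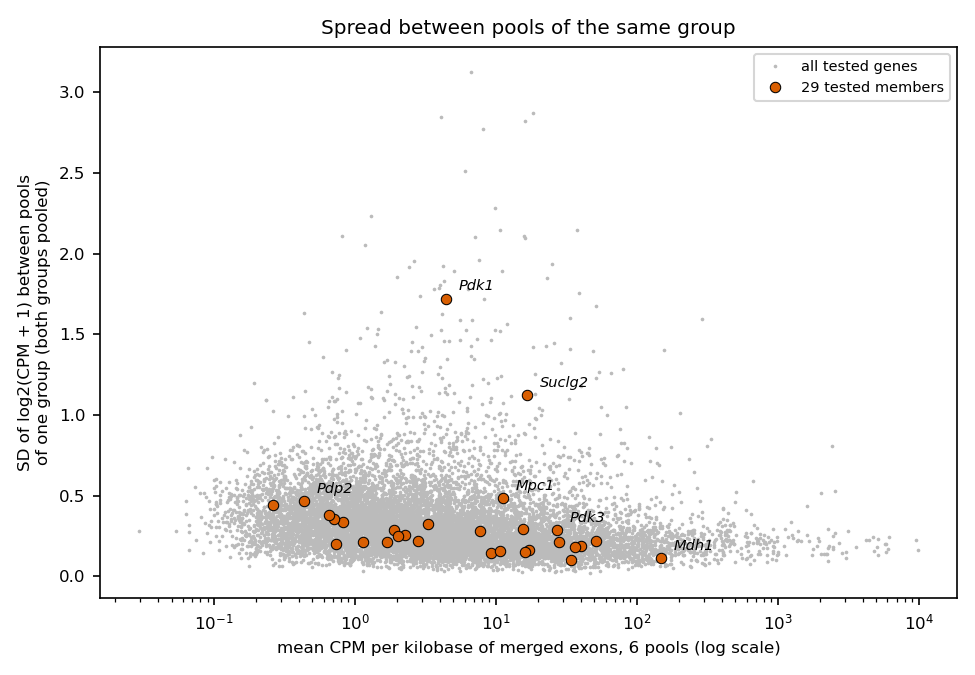
SD of log2(CPM + 1) between pools of a group against mean CPM per kb (log scale) for all tested genes (grey) and the 29 tested members (orange). *Pdk1* (1.72) and *Suclg2* (1.12) lie far above the other members, whose SD does not pass 0.483 (*Mpc1*).

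Quercetin was then compared with control in 1 fit across all 11842 tested genes. No member passed an adjusted p of 0.05 with a 2-fold change by edgeR's quasi-likelihood test, and neither did any other gene (0.0% called higher and 0.0% lower). DESeq2 and edgeR's likelihood ratio test also called 0 members, and 12 and 16 genes in all. At an unadjusted p under 0.05, 2 of 29 members were called, or 6.9%, beside 4.03% of all tested genes. Both were higher with quercetin, beside 2.14% of all genes called higher and 1.89% called lower. The smallest adjusted p of a member was 0.988, and 0.0730 was the smallest of any gene. On simulated counts with the spread of these pools, the same test gave an adjusted p under 0.05 for 19.4% of genes changed 2-fold. For those changed 4-fold it was 79.1%. These shares leave out the 2-fold criterion, and 2-fold changes were mostly not detectable at this depth and number of pools. All 29 members had fitted changes under 2-fold, from -0.47 (*Mpc2*) to 0.57 (*Sucla2*) on the log2 scale.

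**Figure D3:**
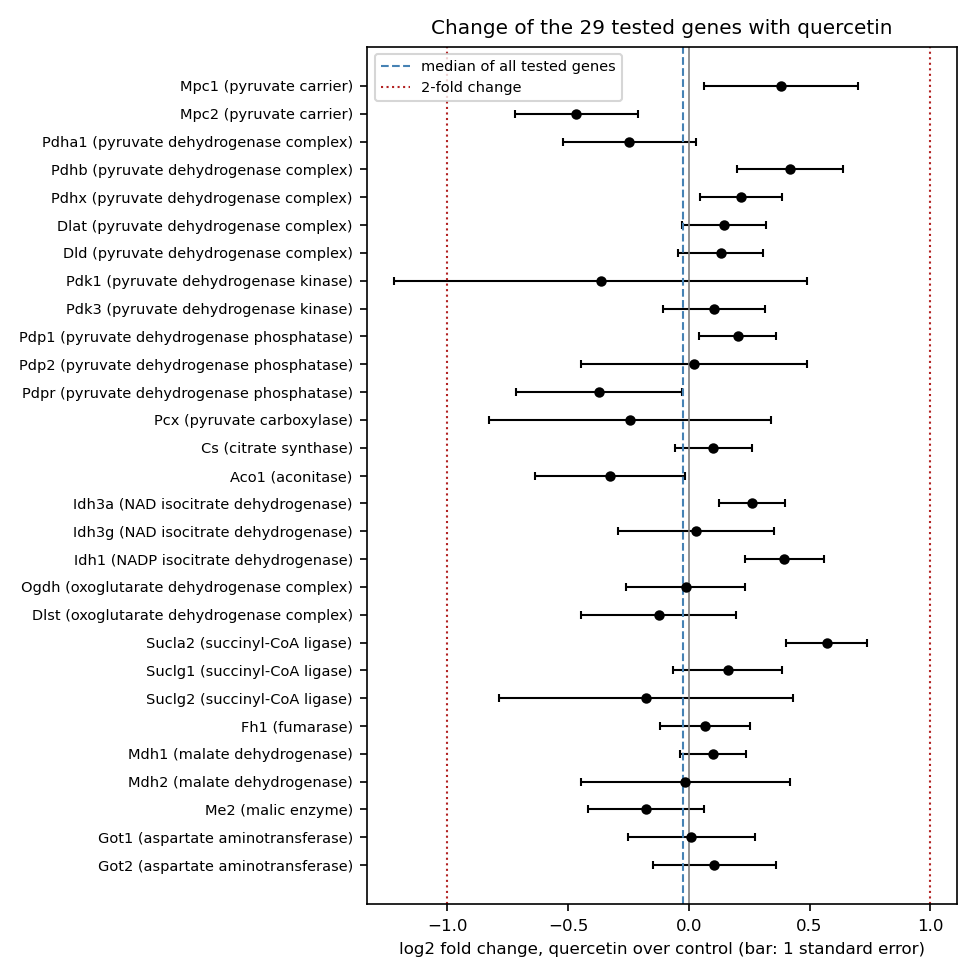
Log2 fold change of quercetin over control for the 29 tested genes in pathway order, with bars of 1 standard error, a dashed line at the median of all tested genes (-0.026) and dotted lines at a 2-fold change. *Sucla2* lies farthest right at 0.57 and *Mpc2* farthest left at -0.47, and *Pdk1* and *Suclg2* have the widest bars.

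The clearest difference by size against error was that of a single succinyl-CoA ligase gene, *Sucla2*. The summed step had 37.9 ± 11.8 CPM per kb in control and 43.0 ± 14.9 in quercetin pools (SD, n = 3, not tested as a sum). *Sucla2* (ENSMUSG00000022110, chromosome 14, 73525319 to 73596142) had 501, 433 and 424 counts in control and 633, 782 and 566 in quercetin pools. As CPM, these were 56.0, 51.9 and 47.6 against 79.1, 85.5 and 66.4, and the lowest quercetin pool lay above the highest control pool. The means were 51.8 ± 4.24 and 77.0 ± 9.74 CPM (SD, n = 3), with a log2 fold change of 0.57 (SE 0.17) and an adjusted p of 0.988 (unadjusted 0.00767) by edgeR's quasi-likelihood test. The unadjusted p was under 0.05 in 14 of 14 settings tried, with log2 fold changes of 0.48 to 0.67, and the adjusted p ran from 0.229 to 1.

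*Idh1* (ENSMUSG00000025950, chromosome 1, 65158616 to 65186500) had 833, 600 and 857 counts in control and 907, 1138 and 903 in quercetin pools. Its CPM were 93.2, 71.9 and 96.1 against 113.3, 124.5 and 105.9, so the groups did not overlap, with control pool 2 the lowest. The means were 87.1 ± 13.2 and 114.6 ± 9.33 CPM (SD, n = 3), with a log2 fold change of 0.40 (SE 0.16) and an adjusted p of 0.988 (unadjusted 0.0394) by the same edgeR test. The unadjusted p was under 0.05 in 7 of 14 settings, with log2 fold changes of 0.28 to 0.48.

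*Idh3a* (ENSMUSG00000032279, chromosome 9, 54586334 to 54604661) had 144.2, 169.2 and 155.9 CPM in control and 187.4, 199.0 and 176.4 CPM in quercetin pools. The log2 fold change was 0.26 (SE 0.14, adjusted p = 0.988 by edgeR), and the groups overlapped once CPM were scaled by library size only. With *Sucla2* and *Idh1*, this made 3 of 29 members (10.3%) whose quercetin pools all lay above the control pools, beside 5.43% of all tested genes. None lay wholly below, beside 5.15%.

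The sum of the cumulus and granulosa markers was also higher in the quercetin pools, but its members did not all go that way. *Kitl* had 7.94, 7.66 and 8.64 CPM in control and 11.9, 12.2 and 12.4 CPM in quercetin pools, and *Cyp19a1* had 58.2 to 68.6 CPM and 72.8 to 75.7 CPM. Lower mean levels with quercetin were those of *Ptgs2* (2.08 ± 1.20 against 1.31 ± 0.839 CPM, log2 fold change -0.68, SE 0.61), *Col4a1* (5.67 ± 1.803 against 4.28 ± 1.40 CPM, -0.40, SE 0.36) and, under the filter, *Fshr* (1.33 ± 0.595 against 1.01 ± 0.443 CPM) and *Star* (SD, n = 3). *Has2* had 4.18 ± 2.07 and 4.33 ± 2.35 CPM (SD, n = 3). Other markers under the filter went the other way, on few counts. *Lhcgr* had 0 counts in every control pool and 2, 4 and 2 in quercetin pools. *Tnfaip6* had 0 counts in every control pool and 2, 8 and 4 in quercetin pools. *Inha*, *Inhba*, *Hsd3b1* and *Cyp11a1* also had higher mean levels with quercetin, with groups that overlapped. The part of these markers in the values of *Sucla2*, *Idh1* and *Idh3a* was not tested.

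**Figure D4:**
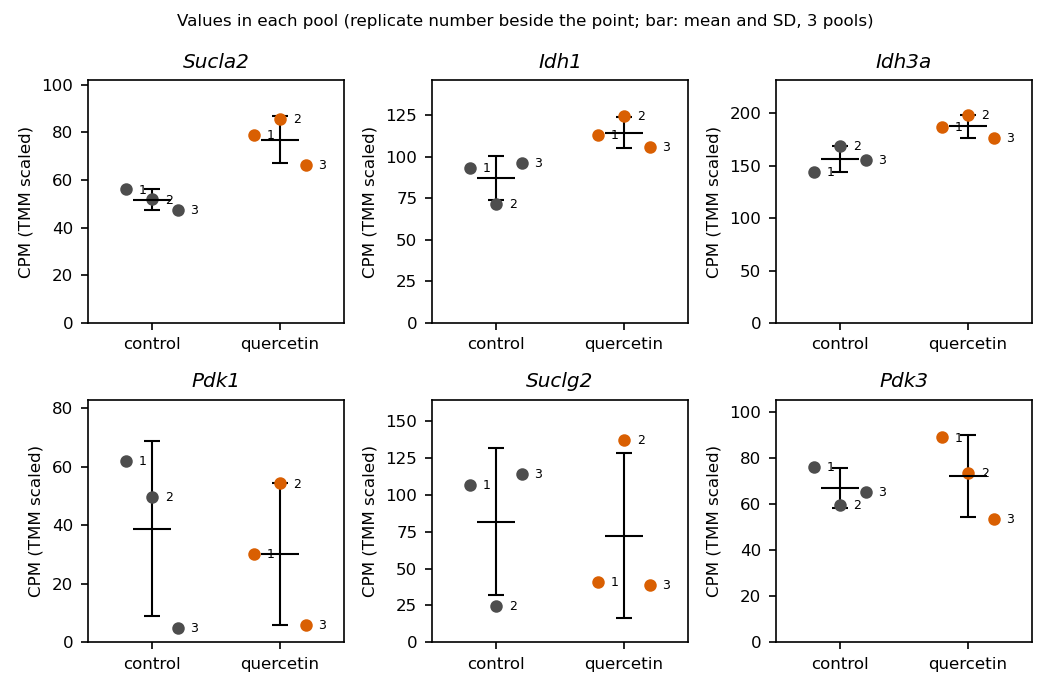
TMM-scaled CPM of *Sucla2*, *Idh1*, *Idh3a*, *Pdk1*, *Suclg2* and *Pdk3* in each pool, with the replicate number beside each point and bars for the mean and SD of 3 pools. The groups are separate for *Sucla2* (47.6 to 56.0 against 66.4 to 85.5), *Idh1* and *Idh3a*, and overlap for the other 3 genes.

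By role, the members that import and decarboxylate pyruvate had small and mixed differences. *Mpc1* had 20.5 ± 7.49 and 26.7 ± 6.70 CPM and *Mpc2* 16.03 ± 3.85 and 11.6 ± 1.78 CPM in control and quercetin pools (SD, n = 3). The log2 fold changes were 0.38 (SE 0.32) for *Mpc1* and -0.47 (SE 0.25) for *Mpc2*. Leaving out single pools moved *Mpc1* from 0.11 (without control pool 2) to 0.61 (without control pool 3). In the PDH complex, *Pdhb* had 0.42 (SE 0.22), *Pdhx* 0.22 (SE 0.17), *Dlat* 0.15 (SE 0.18), *Dld* 0.13 (SE 0.18) and *Pdha1* -0.25 (SE 0.28). The summed complex had 100.1 ± 7.05 CPM per kb in control and 115.2 ± 5.79 in quercetin pools (SD, n = 3, not tested as a sum). When single pools were left out, *Pdhx* ran from 0.051 (without quercetin pool 1) to 0.30 and *Pdha1* from -0.51 (without quercetin pool 3) to -0.086 (without quercetin pool 2). None of these 7 genes separated the groups.

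Neither the regulators that were tested nor *Pcx*, the anaplerotic enzyme, had an unadjusted p under 0.05. Log2 fold changes were 0.10 (SE 0.21) for *Pdk3*, -0.37 (SE 0.86) for *Pdk1*, 0.20 (SE 0.16) for *Pdp1*, 0.021 (SE 0.47) for *Pdp2*, -0.37 (SE 0.34) for *Pdpr* and -0.24 (SE 0.58) for *Pcx*. *Pdk1* and *Pcx* rest on the widest spread and on the lowest counts, and leaving out single pools moved *Pdk1* from -1.10 (without quercetin pool 2) to 0.15. *Pdp1* had 0.33 without quercetin pool 3, where its unadjusted p was 0.0361 by edgeR's quasi-likelihood test.

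Among the remaining cycle and shuttle members, the values closest to 0 were those of *Got1* (0.0098, SE 0.26), *Ogdh* (-0.013, SE 0.25), *Mdh2* (-0.014, SE 0.43) and *Idh3g* (0.030, SE 0.32). *Mdh1*, the most abundant member, had 367.7 ± 31.3 CPM in control and 394.6 ± 29.5 CPM in quercetin pools (SD, n = 3), a log2 fold change of 0.10 (SE 0.14). *Cs* had 0.10 (SE 0.16), *Fh1* 0.066 (SE 0.19), *Suclg1* 0.16 (SE 0.23) and *Got2* 0.10 (SE 0.26). Values below 0 were those of *Aco1* (-0.33, SE 0.31), *Dlst* (-0.12, SE 0.32), *Me2* (-0.18, SE 0.24) and *Suclg2* (-0.18, SE 0.61).

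Over the 29 tested members, the median log2 fold change was 0.066, beside -0.026 over all tested genes, and with library size alone as the scale both were lower, at -0.021 and -0.11. The middle 50% of members ran from -0.18 to 0.16, and that of all genes from -0.24 to 0.17. Of the members, 11 (37.9%) had a fitted change below 0, beside 53.6% of all tested genes.

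The balance between members that share a step was compared as well. Of 10 planned ratios, 8 could be computed, since *Idh2* and *Idh3b* were at or under the floor of 3 counts in 6 and 4 of the 6 pools. None of the 8 separated the groups, with two-sided exact permutation p of 0.2 to 1 and 0.914 to 1 after Benjamini-Hochberg adjustment, where 3 pools against 3 cannot go under 0.1. The nearest was *Mpc1* to *Mpc2*, at 7.05, 2.40 and 4.89 in control and 11.2, 9.10 and 5.02 in quercetin pools.

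Of 41 neighbouring genes, those of succinate dehydrogenase, lipoate synthesis, lactate, malate, citrate and glutamate metabolism and the carriers around the cycle, 28 were tested. None was called by edgeR at an adjusted p of 0.05 with a 2-fold change, and 0 had an unadjusted p under 0.05, beside 4.03% of all tested genes. Their median log2 fold change was -0.080, and 18 of 28 (64.3%) lay below 0, beside 53.6% of all tested genes. A single gene (3.57%, beside 5.15% of all tested genes), the aspartate and glutamate carrier *Slc25a12*, had all quercetin pools below all control pools, with 6.71, 7.66 and 7.18 CPM in control and 6.12, 6.45 and 6.69 CPM in quercetin pools.

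The levels of these neighbours also spread widely, and the genes that follow were picked after their values were seen. Sequence that these genes share with others was not measured here. Lactate dehydrogenase B, *Ldhb*, which interconverts lactate and pyruvate, had 2559 CPM per kb and was above *Mdh1* in 6 of 6 pools by 11.7- to 23.1-fold. *Ldha* did not pass the filter, at 0.115 CPM per kb. Of the succinate dehydrogenase subunits, the flavoprotein *Sdha* had 18.2, *Sdhc* 10.0, *Sdhd* 4.39 and *Sdhb* 3.32 CPM per kb. The cytosolic malic enzyme *Me1* had 75.8 CPM per kb, above *Me2* at 2.04. Thus the cytosolic form had the higher level for *Idh1*, *Mdh1* and *Me1*, the last compared by means of 6 pools alone.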

How the data were processed

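The authors built libraries from pooled oocytes with the Smart-seq HT kit and deposited raw read counts per Ensembl gene, a column for each pool, not normalized. The paper names Hisat2 and GRCm38.91, while the submitters' processing notes list TopHat2 2.0.6 and CASAVA 1.8. The counting program, its strand setting and its treatment of reads matching several genes are not given in the sources used here, so members that overlap or share sequence with other genes are marked in the text.

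Symbols came from the Ensembl gene names (53274 of 53465 identifiers matched), and coordinates and exon lengths from GENCODE release M21 on GRCm38. The 33 members and the lists of neighbouring and marker genes were chosen with earlier results of these data known. Of 24476 genes with a count, 11842 passed filterByExpr (minimum count 10) and 12634 did not. Counts were scaled by TMM and fitted with edgeR 4.0.16 (glmQLFit and glmQLFTest, no covariate, all 6 pools) under R 4.3.3, and p-values were adjusted by Benjamini-Hochberg across every tested gene. A call needed a 2-fold change and an adjusted p under 0.05, which are the criteria of the study. The paper reports genes changed in both directions at these criteria, whereas the main fit here called none. The cause of this difference was not tested. The SE is the log2 fold change divided by the square root of F. Ratios were compared by two-sided exact permutation tests. Shared sequence is the percent of a gene's 31-base words found in transcripts of other genes. The floor of 3 counts covers counting error only. The fit was tested on simulated counts of 11524 genes and made 11 false calls at an adjusted p under 0.05, with no criterion on the fold.

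Named were members with an unadjusted p under 0.05 or with groups that did not overlap, members that failed the filter, and the highest and lowest of a step where the text turns on them. The labels number the pools 1 to 3 in each group without saying that they come from separate cultures, so p-values measure the spread between these pools. The fit was repeated with edgeR's likelihood ratio test, DESeq2 1.42.0, DESeq2's size factors and library size only. Further repeats used no filter, at least 10 counts in every pool, each pool left out, and the replicate number as a block. Levels and ratios per kb, which do not enter the fit, were also computed with the longest transcript as length. Python 3.11.15, numpy 2.4.6, pandas 2.3.3, scipy 1.17.1 and matplotlib 3.10.9 were used for ratios, ranks and plots.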

Additional observations from a re-analysis of the deposited data

How the results depend on the processing

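No member was called under any of the 13 alternatives to the fit. Over all genes, 0 were called in the main analysis, 12 by DESeq2, 16 by edgeR's likelihood ratio test, 3 without a filter and 0 to 7 when single pools were left out (7 without quercetin pool 1), and the cause was not tested. At an unadjusted p under 0.05, the members numbered 2, but 1 with the likelihood ratio test, 1 with library size only (*Sucla2* in each) and 1 to 3 when single pools were left out, with *Sucla2* among them each time. The median of the members was 0.066 and ran from 0.044 to 0.11 when single pools were left out. The number of members above the median level was 16, and 18 by the longest transcript or 17 by library size. Of 8 ratios, 0 separated the groups, and 0 to 4 did when a pool was left out.

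Same-numbered pools deviated together in 2 of 3 numbers (correlations 0.296, 0.101 and -0.0303). The mean between different numbers was -0.0612. It follows largely from taking deviations from the group means, so it is no separate comparison and cannot decide whether the numbers are pairs. The labels do not state a pairing, so the main fit left the numbers out. With the replicate block, 0 genes were called, 2 members (*Pdhb* and *Sucla2*) had an unadjusted p under 0.05, the median was 0.060, and 1 ratio (*Mpc1* to *Mpc2*) moved the same way at all 3 numbers.

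Of 376 values of 29 single genes over the alternatives, 336 kept their direction and 40 were reversed, all in genes with no call, and the cause was not tested. Reversed were, with library size only, *Pdp2* (-0.057), *Idh3g* (-0.050), *Fh1* (-0.021) and *Got1* (-0.074). With DESeq2's size factors in edgeR these were *Ogdh* (0.0042) and *Mdh2* (0.0038), with DESeq2 *Ogdh* (0.0048) and *Mdh2* (0.0019), and with the block *Pdp2* (-0.021), *Ogdh* (0.0010) and *Mdh2* (0.057). Leaving out single pools turned *Dld* (-0.044 to 0.24), *Pdk1* (-1.10 to 0.15), *Pdk3* (-0.075 to 0.28), *Pdp2* (-0.34 to 0.36), *Pcx* (-0.92 to 0.17), *Idh3g* (-0.11 to 0.17), *Ogdh* (-0.18 to 0.12), *Dlst* (-0.44 to 0.090), *Suclg2* (-1.03 to 0.15), *Fh1* (-0.055 to 0.14), *Mdh2* (-0.24 to 0.52), *Got1* (-0.088 to 0.15) and *Got2* (-0.011 to 0.29). *Idh3b* and *Idh2* rest on at most 8 and 3 counts in a pool, too few for a comparison between groups.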
